A study of Mus musculus with 16 samples.

Results

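AMPA receptor genes were followed through oxygen-glucose deprivation (OGD) and tianeptine (TIA) pretreatment in cultured cortical neurons. The 8 genes were taken by symbol out of 53679 gene symbols, and the isoform values of each symbol were summed. They are the pore-forming subunits *Gria1*, *Gria2*, *Gria3* and *Gria4*, the transmembrane AMPA receptor regulatory proteins (TARPs) *Cacng2*, *Cacng3* and *Cacng8*, and the cornichon homolog *Cnih2*. All 8 had a mean of at least 0.5 FPKM (fragments per kilobase of transcript, scaled to the mapped reads), so each was tested in every comparison.

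AMPA receptors are tetrameric glutamate-gated channels that carry most fast excitatory transmission in the cortex. The edited GluA2 subunit, encoded by *Gria2*, keeps calcium out of the channel, and receptors without it pass calcium, which is why subunit composition is followed in models of ischemia. TARPs and cornichons are not part of the pore. They bind the assembled receptor, carry it to the surface and to the synapse, and slow its closing.

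The cultures were primary cortical neurons of wt mice, prepared at embryonic day 15, and all of them came to RNA extraction on the same schedule. At 8 days in vitro they received 10 µM TIA or vehicle, which the sample labels call untreated. After 24 h they went through 3 h of OGD or a sham procedure, and RNA was taken at 6 h of reoxygenation. The groups CONTROL-VEH (cultures 1 to 4), CONTROL-TIA (5 to 8), OGD-VEH (9 to 12) and OGD-TIA (13 to 16) held 4 cultures each, described as biological replicates, so each p measures the spread between 4 cultures a group.

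The 4 *Gria* genes each carry a pair of alternative exons of equal length, flop and flip, which code for the same stretch of the ligand-binding domain and set how fast the channel desensitizes. They are shown for *Gria1* and *Gria2* because the isoform values below are split by them. Each is given 5′ to 3′ from the GENCODE M21 transcripts on GRCm38, and capitals mark the bases at which flip and flop of that gene differ. The *Gria1* exons lie at chr11:57310608-57310722 (flip) and chr11:57309769-57309883 (flop) on the plus strand, and those of *Gria2* at chr3:80690404-80690518 (flip) and chr3:80691320-80691434 (flop) on the minus strand.
Gria1 flip: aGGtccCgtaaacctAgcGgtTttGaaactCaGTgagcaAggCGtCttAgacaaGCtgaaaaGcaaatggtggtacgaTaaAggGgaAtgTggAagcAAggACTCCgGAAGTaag
Gria1 flop: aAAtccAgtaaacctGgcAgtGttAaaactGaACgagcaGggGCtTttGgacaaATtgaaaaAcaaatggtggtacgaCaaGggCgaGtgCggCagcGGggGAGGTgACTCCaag
Gria2 flip: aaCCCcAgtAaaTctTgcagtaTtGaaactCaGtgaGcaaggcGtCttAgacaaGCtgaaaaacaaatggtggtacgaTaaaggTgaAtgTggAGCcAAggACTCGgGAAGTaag
Gria2 flop: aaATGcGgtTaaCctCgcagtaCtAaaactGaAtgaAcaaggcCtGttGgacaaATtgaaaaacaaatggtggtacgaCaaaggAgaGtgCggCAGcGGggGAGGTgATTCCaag
In both genes 36 bases differ, an identity of 68.7%. Between the genes the exons are closer, with 13 differing bases between the *Gria1* and *Gria2* flip exons and 14 between their flop exons. In *Gria3* 32 and in *Gria4* 31 of the bases differ between flip and flop.

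The depth estimated from the smallest values was 19.8 to 25.9 M reads per culture, at which 1 read on a transcript of 1 kilobase is 0.0386 to 0.0505 FPKM. All 14 pan-neuronal, 7 excitatory and 8 inhibitory neuron markers had a mean of at least 0.5 FPKM, but so did all 10 astrocyte markers and 8 of 10 oligodendrocyte lineage markers. Summed pan-neuronal markers were 4770 to 5315 FPKM in CONTROL-VEH, 4744 to 4872 in CONTROL-TIA, 2216 to 4333 in OGD-VEH and 2906 to 4668 in OGD-TIA. Summed astrocyte markers were 2101 to 2740, 2051 to 2131, 2537 to 5397 and 2100 to 4027 FPKM in the same order, and none of their genes was at 0. Of 10 microglia markers 3 reached 0.5 FPKM, and the defining *Cx3cr1* had group means of at most 0.00775 FPKM. Cultures OGD-VEH 9, OGD-VEH 12 and OGD-TIA 16 stood apart from the others of their groups, and values without them are given where a result rests on them.

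In the control cultures *Cnih2* was the most abundant of the 8 genes per transcript length and *Cacng3* the least. CONTROL-VEH means ran from 215 ± 16.8 FPKM (SD, n = 4) for *Cnih2* over 158 ± 10 for *Gria2*, 69.5 ± 23.6 for *Gria1*, 29.7 ± 4.01 for *Cacng8*, 19 ± 3.99 for *Gria4*, 15 ± 0.808 for *Gria3* and 11.7 ± 0.542 for *Cacng2* to 10.6 ± 2.16 for *Cacng3*. Of the 7 neighboring pairs in this order, the ranges of 5 did not overlap. The exceptions were *Gria4* with *Gria3* and *Cacng2* with *Cacng3*. CONTROL-TIA cultures had the same order and the same overlapping pairs. After OGD the order of the means was again the same, but neighbors moved together, with 5 of 7 pairs overlapping in OGD-VEH and 3 of 7 in OGD-TIA.

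The first comparison, OGD-VEH versus CONTROL-VEH, asks what OGD did to these transcripts without the drug. Of the 8 genes 4 fell, namely *Gria1*, *Cacng2*, *Cacng3* and *Cacng8*, and none rose, where 3.45% of all 16346 genes tested were called lower and 4.99% higher by the same rule (padj at most 0.05, limma). *Gria1* and *Cacng3* also passed a log2 fold change of -1 and were DEGs, as 1.68% of all genes were in that direction. In 7 of the 8 genes, all but *Gria4*, every OGD-VEH culture lay below every CONTROL-VEH culture, against 9.95% of all genes, and 7 had an unadjusted p under 0.05, against 14.9%. The median log2 fold change of the 8 genes was -0.62 and that of all genes was 0.10. Scaling by median ratios took the median of all genes to 0.02 and that of the 8 genes to -0.70.

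Among the pore-forming subunits the largest difference was in *Gria1* (chr11:57011387-57330244, plus strand of GRCm38), whose product GluA1 is the subunit recruited to synapses during potentiation. *Gria1* had 53.2, 51.1, 71.7 and 102 FPKM in the CONTROL-VEH cultures and 43.2, 21.1, 23.5 and 19.7 FPKM in the OGD-VEH cultures. OGD-VEH 9 was the highest of its group by far, and the groups did not overlap. *Gria1* fell by 1.39 on the log2 scale (SE 0.30, 95% interval -2.08 to -0.70, padj = 0.0401, limma), to 38.7% of the control mean.

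*Gria3* (chrX:41400854-41678601, plus strand) codes for GluA3, which pairs mainly with GluA2. *Gria3* had 15.3, 14.3, 16 and 14.4 FPKM in the CONTROL-VEH cultures and 13.4, 8.27, 8.78 and 9.05 FPKM in OGD-VEH. Again OGD-VEH 9 was close to the controls and the other 3 cultures were well below them, without overlap. The log2 fold change was -0.62 (SE 0.17), with an exact permutation p of 0.0286, the smallest that 4 cultures against 4 allow, and a padj of 0.0527 from limma, just above the threshold.

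*Gria2* (chr3:80681450-80802835, minus strand) held its level far more closely in the sum of its isoforms. It had 153, 158, 150 and 173 FPKM in the CONTROL-VEH cultures and 141, 134, 143 and 126 FPKM in OGD-VEH. No OGD-VEH culture reached the lowest control, yet the OGD-VEH mean was still 85.9% of the CONTROL-VEH mean (log2 fold change -0.22, SE 0.09, padj = 0.118, limma). Over protein-coding isoforms alone the OGD-VEH cultures were at 91, 73.3, 77.1 and 64.3% of the CONTROL-VEH mean. *Gria4* (chr9:4417896-4796234, minus strand), the subunit typical of fast-spiking interneurons, had 20.4, 14.3, 17.7 and 23.7 FPKM in the CONTROL-VEH cultures and 17.7, 13.5, 15 and 14.4 FPKM in OGD-VEH. Its groups overlapped, and a log2 fold change of -0.31 (SE 0.17, padj = 0.239, limma) was within the spread of the cultures.

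**Figure D1:**
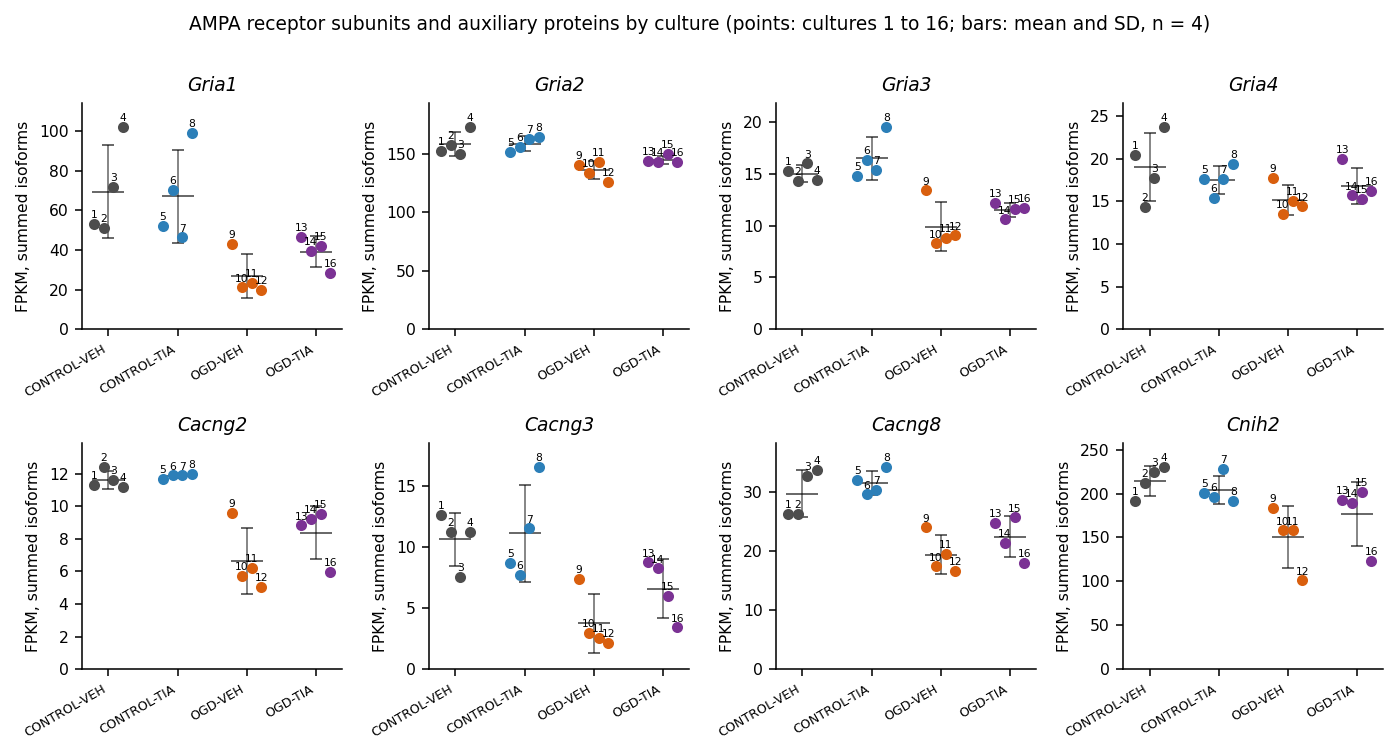
Summed isoform FPKM of each gene (vertical axes, from 0) in the 16 cultures, which are numbered and grouped by treatment on the horizontal axes, with the mean and SD of each group of 4. OGD-VEH 9 sits above the other OGD-VEH cultures in 7 of the 8 genes, and OGD-VEH 12 and OGD-TIA 16 are lowest in their groups in 6 each.

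Each of the 3 TARPs among the 8 genes fell in OGD-VEH. *Cacng3* (chr7:122670492-122769393, plus strand) had 12.6, 11.2, 7.54 and 11.2 FPKM in the CONTROL-VEH cultures and 7.35, 2.98, 2.54 and 2.16 FPKM in OGD-VEH. The control culture 3 and OGD-VEH 9 nearly met, and the other OGD-VEH cultures were at 20.3 to 28% of the control mean. *Cacng3* fell by 1.62 on the log2 scale (SE 0.37, padj = 0.0421, limma), the largest change among the 8 genes, and the 0.1 added to the FPKM before the log makes such values understate the change of low genes.

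*Cacng2* (chr15:77991748-78120028, minus strand) codes for stargazin, the first TARP described, whose loss leaves cerebellar granule cells without surface AMPA receptors. It had 11.3, 12.4, 11.6 and 11.2 FPKM in the CONTROL-VEH cultures and 9.58, 5.71, 6.2 and 5.05 FPKM in OGD-VEH. Controls were tight (coefficient of variation 4.65%) and every OGD-VEH culture was below them. *Cacng2* fell by 0.85 on the log2 scale (SE 0.20, padj = 0.0437, limma).

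*Cacng8* (chr7:3390683-3415648, plus strand), the TARP on which hippocampal AMPA receptors depend most, had 26.3, 26.3, 32.7 and 33.7 FPKM in the CONTROL-VEH cultures and 24, 17.4, 19.5 and 16.7 FPKM in OGD-VEH. OGD-VEH 9 was again the highest of its group, and the groups did not overlap. *Cacng8* fell by 0.62 on the log2 scale (SE 0.16, padj = 0.0483, limma). *Cnih2* (chr19:5092868-5098521, minus strand), whose product travels with the receptor through the secretory pathway and slows its deactivation, had 192, 212, 225 and 230 FPKM in the CONTROL-VEH cultures and 184, 158, 158 and 101 FPKM in OGD-VEH. The groups did not overlap, but the OGD-VEH cultures were spread widely, and the log2 fold change of -0.55 (SE 0.18) had a padj of 0.0745 from limma.

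The 4 calls lay near the threshold, with padj from 0.0401 to 0.0483. Without OGD-VEH 9, 6 genes were called (the same 4 with *Gria3* and *Cnih2*) in a fit that called 12.6% of all genes lower, and without any other single culture none was, with padj up to 0.116 for *Gria1*, 0.117 for *Cacng3*, 0.121 for *Cacng2* and 0.129 for *Cacng8* (limma). In these 8 fits the log2 fold change of *Gria1* stayed between -1.64 and -1.18, that of *Cacng3* was -1.42 or lower, that of *Cacng2* between -1.04 and -0.73 and that of *Cacng8* between -0.73 and -0.55. None of the 8 genes was called when genes without a minimum level were tested as well, and all but *Gria4* were called when the 16 cultures shared 1 estimate of the spread, a fit that called 12.4% of all genes lower.

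**Figure D2:**
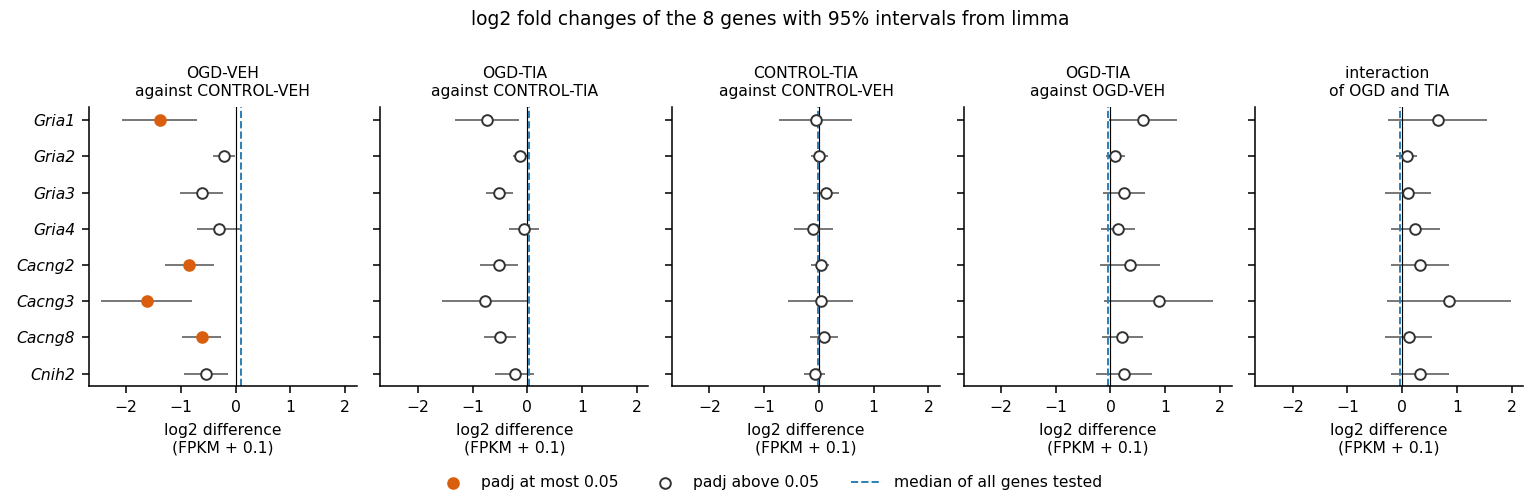
log2 difference of each gene with its 95% interval from limma in the 4 comparisons and for the interaction of OGD and TIA (the OGD effect with TIA minus that with vehicle). Filled points had a padj of at most 0.05, which held for 4 genes in the first comparison and for none elsewhere. The dashed line is the median of all genes tested, 0.10 in the first panel.

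Within the OGD-VEH group the 8 genes ranked the cultures alike. OGD-VEH 9 was highest for 7 genes, all but *Gria2*, and OGD-VEH 12 was lowest for 6, all but *Gria3* and *Gria4*. Relative to the CONTROL-VEH mean, OGD-VEH 9 ranged from 62.1% for *Gria1* to 93.2% for *Gria4*, and OGD-VEH 12 from 20.3% for *Cacng3* to 79.6% for *Gria2*. Summed pan-neuronal, excitatory neuron and astrocyte markers moved with this order, those of astrocytes inversely, and inhibitory neuron markers did not. Summed pan-neuronal markers were 4333, 3348, 3320 and 2216 FPKM in OGD-VEH 9 to 12, excitatory neuron markers 305, 196, 208 and 88.6 FPKM, and astrocyte markers 2537, 3593, 3212 and 5397 FPKM. Inhibitory neuron markers were 481, 384, 359 and 509 FPKM, highest in OGD-VEH 12. In bulk RNA fewer neurons and less of a transcript per neuron cannot be told apart, and the part of cell composition in the fall of the AMPA receptor genes was not tested. The median log2 fold change of the 14 pan-neuronal markers in this comparison was -0.69, beside -0.62 for the 8 genes. By limma 1 of 14 pan-neuronal and 1 of 8 inhibitory neuron markers fell, and 4 of 8 tested oligodendrocyte lineage markers rose and 1 fell. Over all genes 3.45% were called lower and 4.99% higher. Of 3 tested microglia markers 1 rose, *Cd68*, a lysosomal gene of phagocytes (2.53 to 12.1 FPKM, log2 fold change 2.34, padj = 0.0281, limma). None of 7 excitatory neuron and 10 astrocyte markers was called, with 6 excitatory markers lower and 4 astrocyte markers higher at an unadjusted p under 0.05. At that p 3 inhibitory neuron markers were higher and 3 lower, and of all genes 20.2% were higher and 14.9% lower.

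**Figure D3:**
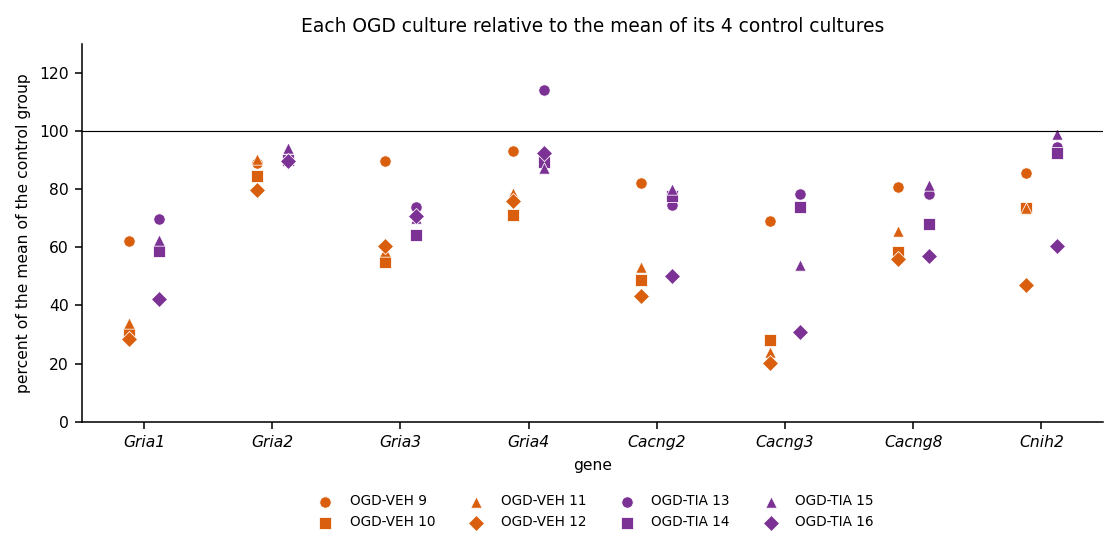
FPKM of each gene in the 8 OGD cultures as a percentage of the mean of the matching control group (vertical axis, from 0), with vehicle cultures in orange and TIA cultures in purple. Over all isoforms, as drawn, *Gria2* stays between 79.6% and 94.2% in all 8 cultures, whereas *Cacng3* spans 20.3% to 78.4%. Over protein-coding isoforms alone *Gria2* ran from 64.3% (OGD-VEH 12) to 98.6% (OGD-TIA 13).

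The second comparison, OGD-TIA versus CONTROL-TIA, asks for the OGD effect in cultures pretreated with the drug. None of the 8 genes was called, and neither was any of the 16242 genes tested (0%). In the 10 other settings 0 to 305 genes were called in this comparison, the most with isoforms weighted by length. The authors did report DEGs for this comparison from their own test on counts. The absence of calls therefore depends on the test, and it does not show that OGD left these cultures unchanged. At an unadjusted p under 0.05 (limma) 4 genes were lower, namely *Gria1*, *Gria3*, *Cacng2* and *Cacng8*, against 7.92% of all genes. In *Gria2*, *Gria3*, *Cacng2* and *Cacng8* all OGD-TIA cultures lay below all CONTROL-TIA cultures, as in 6.72% of all genes. All 8 log2 fold changes were below 0, with a median of -0.50 against 0.04 over all genes.

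*Gria3* came nearest to a call. It had 14.8, 16.3, 15.4 and 19.5 FPKM in CONTROL-TIA and 12.2, 10.6, 11.6 and 11.7 FPKM in OGD-TIA. These OGD-TIA values were tight and clear of the controls (log2 fold change -0.51, SE 0.11, unadjusted p = 0.0015, padj = 0.113, limma). Over protein-coding isoforms alone the groups overlapped, with a log2 fold change of -0.14 (SE 0.41, padj = 0.867, limma). The overlap came from CONTROL-TIA 8 alone, at 1.89 FPKM. The other CONTROL-TIA cultures had 6.31 to 7 FPKM and the OGD-TIA cultures 3.71 to 5.62 FPKM. With isoforms weighted by length *Gria3* was called (padj = 0.0426, limma), as 0.819% of all genes were in the lower direction. *Cacng8* had 32.1, 29.6, 30.4 and 34.2 FPKM in CONTROL-TIA and 24.7, 21.4, 25.7 and 18 FPKM in OGD-TIA, again without overlap (log2 fold change -0.50, SE 0.13, padj = 0.13, limma).

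*Gria1* had 52.3, 70.3, 46.3 and 99.1 FPKM in CONTROL-TIA and 46.6, 39.3, 41.9 and 28.3 FPKM in OGD-TIA. OGD-TIA 13 just exceeded the lowest control, and the log2 fold change was -0.74 (SE 0.25, padj = 0.191, limma). *Cacng3* had 8.69, 7.72, 11.5 and 16.5 FPKM in CONTROL-TIA and 8.72, 8.23, 6 and 3.41 FPKM in OGD-TIA (log2 fold change -0.77, SE 0.34, padj = 0.259, limma). Its groups overlapped through OGD-TIA 13 and 14. Of the 8.23 FPKM in OGD-TIA 14, 4.23 FPKM lay on the short isoform Cacng3-202, at 0 to 0.01 FPKM in the other OGD-TIA cultures. *Cacng2* had 11.7, 11.9, 11.9 and 12 FPKM in CONTROL-TIA and 8.83, 9.22, 9.52 and 5.95 FPKM in OGD-TIA, below the controls in every culture (log2 fold change -0.52, SE 0.15, padj = 0.155, limma).

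For the remaining genes the log2 fold changes were smaller. *Gria2* was at 152 to 165 FPKM in CONTROL-TIA and 143 to 150 FPKM in OGD-TIA (log2 fold change -0.13, padj = 0.275, limma). *Gria4* was at 15.4 to 19.4 FPKM and 15.3 to 20 FPKM (log2 fold change -0.06, padj = 0.786, limma). *Cnih2* had 193, 189 and 202 FPKM in OGD-TIA 13 to 15 and 123 FPKM in OGD-TIA 16, beside 192 to 228 FPKM in CONTROL-TIA (log2 fold change -0.23, padj = 0.438, limma). OGD-TIA 16 was the lowest of its group for 6 of the 8 genes, with summed pan-neuronal markers of 2906 FPKM against 4501 to 4668 in the other 3 cultures and astrocyte markers of 4027 FPKM against 2100 to 2456. Without it the log2 fold change of *Cnih2* was -0.07, that of *Cacng3* -0.49 and that of *Cacng2* -0.37, and still no gene was called.

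The OGD effects with and without TIA were compared directly by their interaction over the 16 cultures. None of the 8 genes was called (padj 0.722 to 0.866, limma, with 0% of 16313 genes called), and none had an unadjusted p under 0.05, which 6.06% of all genes had. The interaction was above 0 for all 8 genes, that is, towards a smaller OGD effect with TIA. It was 0.85 for *Cacng3* (95% interval -0.28 to 1.99), 0.65 for *Gria1* (-0.25 to 1.55), 0.33 for *Cacng2* (-0.21 to 0.86) and 0.09 for *Gria2* (-0.11 to 0.28). These intervals include 0 as well as effects as large as the OGD effect itself, so 4 cultures a group could not show whether the drug changed the response of these genes. The intervals of *Gria3* (-0.31 to 0.53) and *Cacng8* (-0.31 to 0.55) include 0 too. They end below the size of the OGD effect with vehicle, a log2 fold change of -0.62 for each. Over protein-coding isoforms the interaction of *Gria1* was 0.72 (0.03 to 1.40), with an unadjusted p of 0.0411 and a padj of 0.705 (limma). That of *Gria3* moved further, from 0.11 (-0.31 to 0.53) to 0.85 (-0.23 to 1.93), with a padj of 0.705 as well (limma). This value includes CONTROL-TIA 8, with 1.89 FPKM of protein-coding *Gria3* against 6.31 to 7 FPKM in the other CONTROL-TIA cultures. Protein-coding isoforms were not fitted without that culture.

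After OGD, TIA cultures had higher means than vehicle cultures for each of the 8 genes, and no difference passed the test (padj 0.551 to 0.63, limma, with 0% of 16351 genes called). None had an unadjusted p under 0.05, which 7.91% of all genes had. The largest was in *Cacng3*, at 6.59 ± 2.43 FPKM (SD, n = 4) in OGD-TIA and 3.76 ± 2.42 FPKM in OGD-VEH, with a log2 fold change of 0.88 (SE 0.43, padj = 0.551, limma). Its full-length isoform Cacng3-201 had means of 5.5 FPKM in OGD-TIA and 3.67 FPKM in OGD-VEH. *Gria1* was at 39 ± 7.75 and 26.9 ± 11 FPKM (log2 fold change 0.59, SE 0.27, padj = 0.551, limma). In every gene the groups overlapped, whereas 1.3% of all genes lay wholly higher with TIA. With weights that discount variable cultures, 2 genes (*Gria1* and *Cacng3*, padj = 0.0463 each, limma) were called, in a fit that called 3.49% of all genes higher. Leaving out OGD-VEH 9 raised the log2 fold change to 0.84 for *Gria1* and 1.26 for *Cacng3*, with a padj of 0.143 and 0.154 from limma.

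In sham cultures TIA left no difference that could be detected. The log2 fold changes of CONTROL-TIA versus CONTROL-VEH ran from -0.10 for *Gria4* to 0.13 for *Gria3*, and none was called (padj 0.999 for each, limma, with 0% of 16170 genes called) or had an unadjusted p under 0.05, which 3.84% of all genes had. The intervals were narrow for *Gria2* (-0.15 to 0.16) and *Cacng2* (-0.14 to 0.19) and wide for *Gria1* (-0.73 to 0.61) and *Cacng3* (-0.56 to 0.62), so changes of moderate size in the latter pair would have been missed.

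Since the differences were unequal, the balance among the transcripts differed between groups, which is described here without a test. *Gria1* made up 26.1 ± 5.33% (SD, n = 4) of the summed *Gria1* to *Gria4* FPKM in the CONTROL-VEH cultures and 14 ± 4.05% in OGD-VEH, while *Gria2* made up 60.9 ± 4.98% and 72.7 ± 4.84%. In CONTROL-TIA and OGD-TIA *Gria1* made up 25.3 ± 5.99% and 18.3 ± 2.85%, and *Gria2* 61.6 ± 5.54% and 68.4 ± 2.91%. Over all isoforms the *Gria1* shares did not overlap between OGD-VEH (11.6 to 20.1%) and CONTROL-VEH (21.5 to 32.7%), but those of *Gria2* did. With protein-coding isoforms alone, *Gria1* made up 29.2 ± 3.61% in CONTROL-VEH (26.6 to 34.4%) and 20.6 ± 3.97% in OGD-VEH (18.4 to 26.6%), so its ranges met. *Gria2* then made up 57.4 ± 4.12% and 64.7 ± 3.62%.

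The TARPs *Cacng2*, *Cacng3* and *Cacng8* were also set against subunit transcripts, again without a test. The more abundant *Cacng4* (227 FPKM in CONTROL-VEH and 181 in OGD-VEH) and *Cacng7* (79.4 and 84.7) are not counted. The values therefore do not describe TARP transcripts as a whole. Over protein-coding isoforms, summed *Cacng2*, *Cacng3* and *Cacng8* amounted to 28 ± 1.38% of summed *Gria1* to *Gria4* FPKM in CONTROL-VEH (26.5 to 29.3%) and 23.4 ± 1.21% in OGD-VEH (22.6 to 25.2%). In CONTROL-TIA the value was 31 ± 2.74% (28.7 to 35%) and in OGD-TIA 23.9 ± 2.15% (20.8 to 25.4%). On this count the OGD cultures lay below their controls without overlap in both arms. It includes the short coding isoforms Cacng3-202 and Cacng3-203, at 0 to 4.34 and 0 to 5.14 FPKM in the CONTROL-VEH cultures. In OGD-VEH they reached at most 0.234 and 0.113 FPKM. Whether the groups stay apart without these isoforms was not tested. Over all isoforms the value was 17.9 to 21% in CONTROL-VEH and 14.1 to 19% in OGD-VEH, with overlap, and 19.1 to 22.2% in CONTROL-TIA and 13.7 to 19% in OGD-TIA.

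The 8 genes have 34 isoforms in the table, of which 24 had a mean of at least 0.5 FPKM over all cultures. In OGD-VEH versus CONTROL-VEH none of the 24 tested isoforms was called (lowest padj 0.132, limma), as 0.149% of all isoforms were, and 9 were lower at an unadjusted p under 0.05, against 8.45% of all isoforms. In OGD-TIA versus CONTROL-TIA none of 25 was called (0.0324% of all isoforms), and 8 were lower at that p, against 4.45%. Without OGD-VEH 9, 5 isoforms were called in the first comparison, namely Cacng2-201, Gria2-202, Cacng3-201, Gria3-206 and Gria3-201, all lower, where 2.39% of all isoforms were called lower in the same fit. Reads of 50 bases were shared out among isoforms by probability, so single isoforms are less certain than gene sums.

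For *Gria2* the isoforms did not move alike. Gria2-202, which carries flip and is 4026 bases long, had 75.1, 73.8, 75.4 and 75 FPKM in the CONTROL-VEH cultures and 64.5, 50.4, 54.6 and 45.5 FPKM in OGD-VEH. These controls agreed almost exactly and all OGD-VEH cultures were lower (log2 fold change -0.49, SE 0.12, exact permutation p = 0.0286, padj = 0.136, limma). Gria2-201, which carries flop and is 10371 bases long with the same 2649 coding bases, had 30.6, 30.5, 30.3 and 34.3 FPKM in the CONTROL-VEH cultures and 32.2, 27.4, 27.3 and 22.8 FPKM in OGD-VEH, with overlap. As a result flip made up 70.4 ± 1.25% (SD, n = 4) of flip and flop FPKM in CONTROL-VEH (68.6 to 71.3%) and 66.2 ± 0.951% in OGD-VEH (64.8 to 66.7%). The share was 69.8 ± 0.572% in CONTROL-TIA and 68 ± 2.26% in OGD-TIA. This share was chosen after its values were seen and is not tested, and since both isoforms differ in the untranslated end as well as in the cassette, the cassette and the end cannot be told apart.

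Gria2-204 is annotated as a retained-intron transcript without a coding sequence. It reads through a splice donor and ends 3060 bases into unspliced sequence (chr3:80704639-80707698, minus strand). The junction is shown because reads across it are unspliced at this donor. Its 60 bases lie at chr3:80707669-80707728 on the minus strand of GRCm38, in GENCODE M21, with the last 30 exon bases in capitals and the first 30 intron bases in lower case.
Gria2-204 exon-intron junction: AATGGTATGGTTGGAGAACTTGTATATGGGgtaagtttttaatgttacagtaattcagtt
Gria2-204 had 13.4, 15.8, 12.8 and 23.4 FPKM in the CONTROL-VEH cultures and 14.2, 23.6, 27.6 and 28.1 FPKM in OGD-VEH. It thus lay above every CONTROL-VEH culture in 3 OGD-VEH cultures but not in OGD-VEH 9, opposite to the protein-coding isoforms. The difference did not pass the test (log2 fold change 0.50, SE 0.28, padj = 0.371, limma). In OGD-TIA it had 11.6, 15.2, 14.3 and 25.6 FPKM, highest in OGD-TIA 16, beside 16.1 to 18.1 FPKM in CONTROL-TIA. All retained-intron isoforms together made up 28.8 ± 3.46% (SD, n = 4) of *Gria2* FPKM in the CONTROL-VEH cultures and 35.7 ± 5.53% in OGD-VEH. Counting protein-coding isoforms alone, the log2 fold change of *Gria2* was -0.40 (SE 0.11, padj = 0.0527, limma) in place of -0.22.

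**Figure D4:**
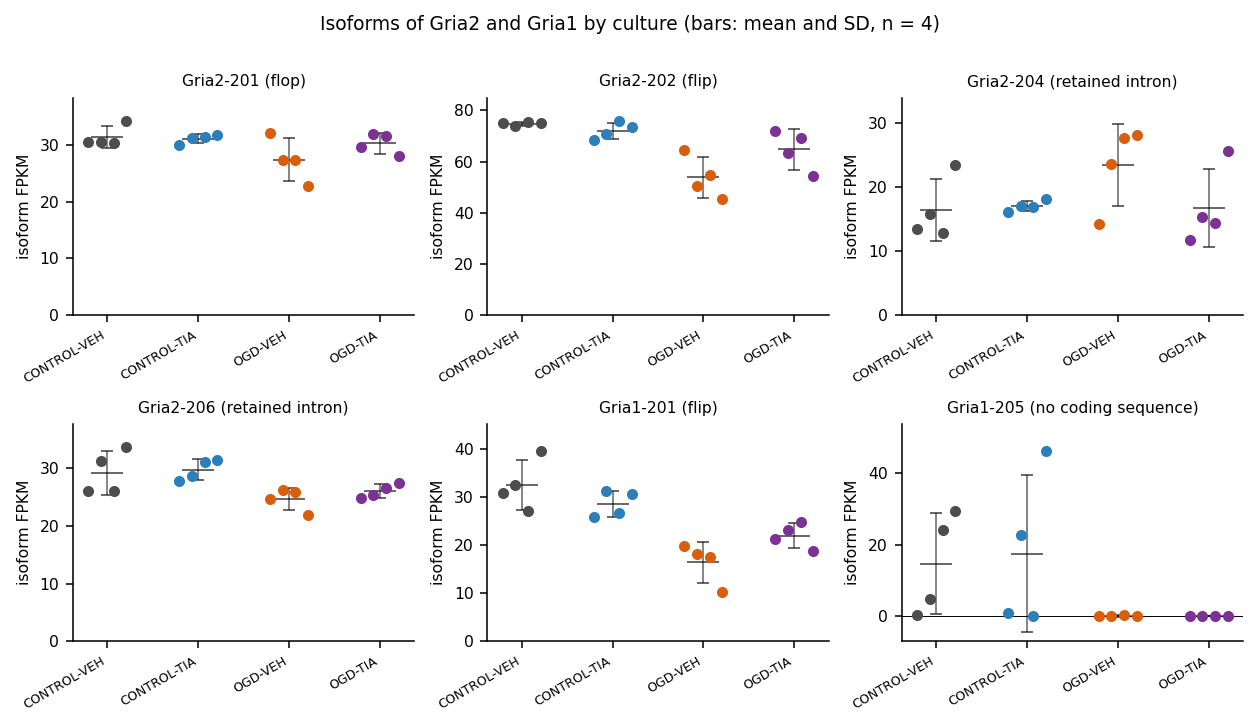
FPKM of 4 *Gria2* and 2 *Gria1* isoforms (vertical axes) in the 16 cultures by group, with the mean and SD of each group of 4. The *Gria2* flip isoform Gria2-202 lies below all controls in OGD-VEH, the retained-intron isoform Gria2-204 does not, and Gria1-205 ranges from 0.027 to 46.1 FPKM in the control cultures.

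The *Gria1* sum held a noncoding isoform of unstable level. Gria1-205, a processed transcript of 531 bases at chr11:57176518-57189793, had 0.514, 4.95, 24.2 and 29.3 FPKM in the CONTROL-VEH cultures and 0.882, 22.8, 0.027 and 46.1 FPKM in CONTROL-TIA. It was at 0 to 0.377 FPKM in the 8 OGD cultures, so the high *Gria1* sums of cultures 3, 4, 6 and 8 include it. Protein-coding *Gria1* had a mean of 54.8 ± 12.4 FPKM (SD, n = 4) for CONTROL-VEH, fell to 26.8 ± 11 FPKM for OGD-VEH, and so decreased by 1.08 on the log2 scale (SE 0.26, padj = 0.0449, limma), still a DEG. With TIA it was 49.5 ± 3.2 FPKM in CONTROL-TIA and 39 ± 7.75 FPKM in OGD-TIA (log2 fold change -0.36, SE 0.15, padj = 0.219, limma). The main flip isoform Gria1-201 had 30.9, 32.6, 27.2 and 39.6 FPKM in the CONTROL-VEH cultures and 19.9, 18.1, 17.6 and 10.2 FPKM in OGD-VEH, without overlap (log2 fold change -1.01, SE 0.23, padj = 0.132, limma). The flop isoform Gria1-202 was lower and more variable, at 4.17 to 20.1 FPKM in the CONTROL-VEH cultures and 1.82 to 10.6 FPKM in OGD-VEH.

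Over protein-coding isoforms 5 of the 8 genes fell in OGD-VEH, the same 4 and *Gria3*, against 4.09% of all genes. Protein-coding *Gria3* had a mean of 6.18 ± 1.06 FPKM (SD, n = 4) without OGD and 3.18 ± 1.22 FPKM after it (log2 fold change -0.99, SE 0.26, padj = 0.048, limma). About as much *Gria3* signal lay on Gria3-206, which contains both flip and flop and is annotated for nonsense-mediated decay, at 51.2 ± 6.7% of *Gria3* FPKM in the CONTROL-VEH cultures and 50.7 ± 4.95% in OGD-VEH. In *Gria4* flip was at 64.3 ± 9.35% of flip and flop FPKM in the CONTROL-VEH cultures and 71.5 ± 5.81% in OGD-VEH, with overlap. Gria4-203, a shorter coding isoform with neither cassette, had 8.46, 5.35, 8.76 and 8.57 FPKM in the CONTROL-VEH cultures and 8.1, 4.09, 4.69 and 3.71 FPKM in OGD-VEH.

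*Cacng2* and *Cnih2* are listed with 1 isoform each, so only *Cacng3* and *Cacng8* could differ by isoform among the auxiliary proteins. Cacng3-201, the full-length isoform, had 7.46, 6.21, 7.39 and 4.93 FPKM in the CONTROL-VEH cultures and 7.01, 2.98, 2.54 and 2.16 FPKM in OGD-VEH, with a log2 fold change of -0.95 (SE 0.37, padj = 0.227, limma). It overlapped through OGD-VEH 9. The shorter Cacng3-203 was at 0 to 5.14 FPKM in the CONTROL-VEH cultures and 0 to 0.113 FPKM in OGD-VEH, so part of the *Cacng3* difference lies on an isoform that varied widely between control cultures. With isoforms weighted by length the *Cacng3* log2 fold change was -1.21, the smallest of all settings tried. For *Cacng8*, Cacng8-201 had 0, 7.75, 10.8 and 12.9 FPKM in CONTROL-VEH and 0, 0.006, 4.64 and 0.848 FPKM in OGD-VEH. Its log2 fold change was -2.80 (SE 1.91, padj = 0.461, limma). Those of Cacng8-202 and Cacng8-203 were -0.55 (SE 0.24) and 0.26 (SE 0.25), with padj of 0.265 and 0.609 (limma). The groups overlapped in each of these isoforms.

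Other AMPA receptor genes were compared by lists. Of 22 further auxiliary and assembly genes 2 fell in OGD-VEH versus CONTROL-VEH and none rose, with a median log2 fold change of -0.48. At an unadjusted p under 0.05, 13 were lower and 2 higher. Of all genes 3.45% were called lower, and 14.9% were lower and 20.2% higher at that p. The 2 that fell were *Prrt2*, a presynaptic protein that also associates with the receptor (196 to 85.7 FPKM, log2 fold change -1.32, padj = 0.0485, limma), and *Frrs1l*, an endoplasmic reticulum factor of receptor assembly (22.5 to 13.5 FPKM, log2 fold change -0.78, padj = 0.05, limma). *Cacng4*, the most abundant TARP of these cultures and not among the 8 genes, had means of 227 and 181 FPKM in these groups (log2 fold change -0.33, padj = 0.0572, limma). *Cacng7* was at 79.4 and 84.7 FPKM (log2 fold change 0.10, padj = 0.644, limma). *Cacng5* was at 3.45 and 6.33 FPKM (log2 fold change 0.79, padj = 0.0895, limma), so the estimates for the TARP family lay on both sides of 0.

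Of 27 anchoring, trafficking and modification genes 3 fell and none rose, with 17 lower at an unadjusted p under 0.05 and a median log2 fold change of -0.64. Of all genes 3.45% were called lower, and 14.9% were lower at that p. The 3 that fell were the kinase genes *Camk2a* and *Camk2b*, whose product phosphorylates GluA1, and *Ppp3ca*, a catalytic subunit of the phosphatase calcineurin. They fell by 1.88, 1.18 and 0.64 on the log2 scale (padj 0.0461, 0.0393 and 0.0388, limma). *Adarb1*, which codes for the enzyme that edits the *Gria2* transcript, had means of 23.6 and 21.7 FPKM (log2 fold change -0.12, padj = 0.688, limma). Editing itself was not measured. As for the 8 genes, these calls were near the threshold, and each list gene named as fallen kept its call in 1 or 2 of the 8 fits without 1 culture.

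Of the other ionotropic glutamate receptor genes, 2 of 5 tested NMDA receptor subunits fell, *Grin1* by 1.51 and *Grin2b* by 1.04 on the log2 scale (padj 0.0467 and 0.0437, limma). None of 7 kainate receptor and Neto genes was called by limma, with 3 lower at an unadjusted p under 0.05. Of all genes 3.45% were called lower, and 14.9% were lower at that p. The medians of the NMDA and kainate lists were -1.04 and -0.19, with -0.62 for the 8 AMPA receptor genes between them. In OGD-TIA versus CONTROL-TIA no gene of any of these lists was called. The medians were -0.17 for the auxiliary, -0.25 for the anchoring, -0.37 for the NMDA and -0.23 for the kainate lists. In the same order 5 of 22, 7 of 27, 2 of 5 and 1 of 7 genes were lower at an unadjusted p under 0.05, against 7.92% of all genes.

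**Figure D5:**
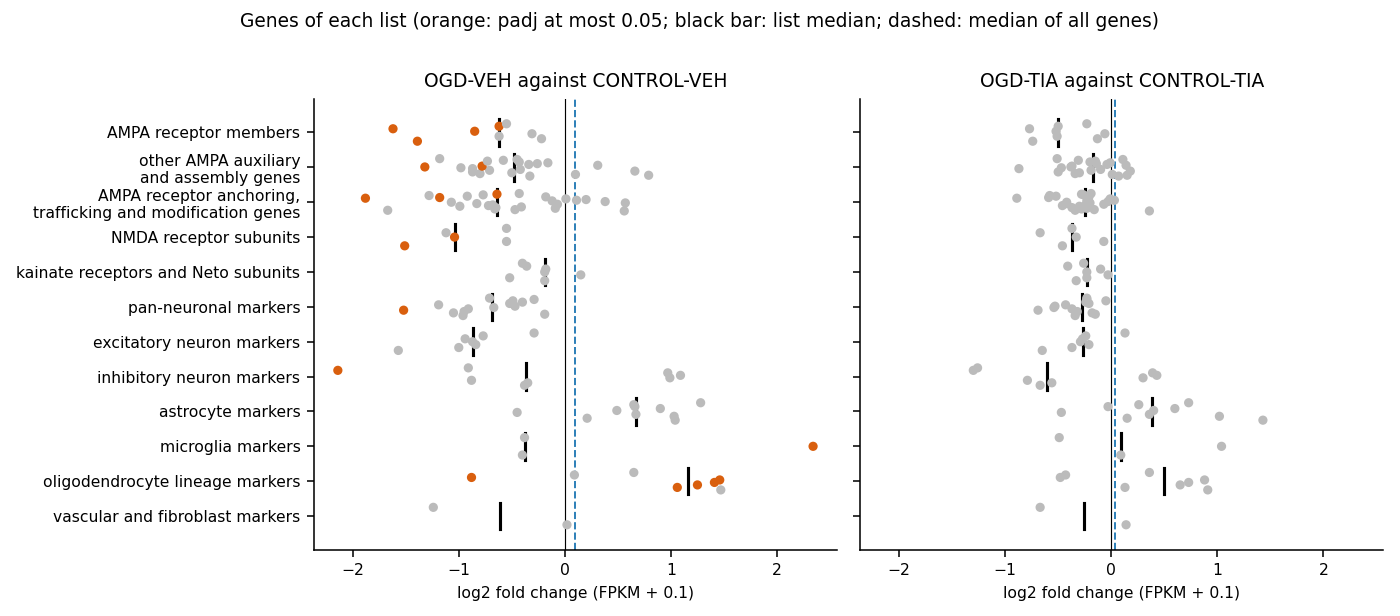
log2 fold changes of the tested genes of each list (rows) for OGD with vehicle and for OGD with TIA, each against its own control, with the list median as a black bar and the median of all genes dashed. Orange points had a padj of at most 0.05. The 8 AMPA receptor genes lie at a median of -0.62 and -0.50, the pan-neuronal markers at -0.69 and -0.28, and the astrocyte markers at 0.67 and 0.38.

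Across the 16 cultures the log2 levels of the 8 genes went together to different degrees, given here as Pearson correlations without a test, since cultures of a group share their treatment. The closest pairs among the 8 were *Gria1* with *Cacng8* (r = 0.94) and *Cacng2* with *Cacng3* (r = 0.93). *Gria4* stood furthest off, with its closest member, *Gria1*, at 0.71. Of 16312 genes the most similar to *Gria1* were *2610002M06Rik* (0.968), *Rph3a* (0.957) and *Galntl6* (0.956), and to *Cacng8* *Prkcb* (0.966), *Palm2* (0.959) and *Cdo1* (0.957). *Cacng2* was closest to *AI593442* (0.988), *Rftn1* (0.988) and *Fam163b* (0.984), *Cacng3* to *Abca3* (0.961), *Lmtk3* (0.954) and *Spock3* (0.951), and *Cnih2* to *Gm11223* (0.982), *Gap43* (0.980) and *Ncdn* (0.977). *Gria2* was closest to *Gm48957* (0.939), *Pdzd2* (0.938) and *Unc80* (0.933), *Gria3* to *5730409E04Rik* (0.958), *Nfe2l3* (0.955) and *Sstr4* (0.953), and *Gria4* to *Ankrd24* (0.882), *Gabrg1* (0.877) and *9330102E08Rik* (0.871). The median correlation over all genes lay between -0.20 and -0.07 for the 8 genes.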

How the data were processed

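Stranded mRNA libraries of 16 cultures were sequenced by the authors with single-end reads of 50 bases, mapped with STAR to GRCm38 with Ensembl release 92, and quantified per isoform with eXpress. The deposited values are TMM-scaled FPKM by the file's name, and the authors ran DESeq2 on counts that were not used here, so a test for log values replaced it. Of 135276 lines, 74 without an identifier were left out. Names and positions came from GENCODE M21 (99.82% of isoforms matched, 98.86% of these with the same start and end). Isoform FPKM were summed per symbol and log2(FPKM + 0.1) was fitted with limma 3.58.1 (R 4.3.3, empirical Bayes with trend) on the 8 cultures of each comparison, or on all 16 for the interaction, after genes under a mean of 0.5 FPKM were removed, with Benjamini-Hochberg adjustment. A gene was called at padj at most 0.05 and was a DEG where its log2 fold change was also 1 or more, or -1 or less. Exact permutation tests were two-sided over 70 splits. Depth was estimated from single-read values of 16498 genes with 1 isoform, so it is approximate and no counting intervals were made. The named genes are all 8 members, up to 4 called genes per list, genes of defining role, and the 3 genes most correlated with each member. Members and lists were chosen with earlier results of these data known. Data were simulated with the spread of the control cultures (16313 genes, 200 changed, 4 cultures against 4). In them 53 to 67% of changes of 1 and 80 to 89% of changes of 2 on the log2 scale were called, with at most 18 false calls. The simulation drew each gene independently and used no OGD culture, so these shares need not hold for comparisons with OGD cultures. Figures were drawn with matplotlib 3.10.9, and tables were handled with pandas 2.3.3, numpy 2.4.6 and scipy 1.17.1 in Python 3.11.15. A further 10 settings and fits without each culture were run as alternatives.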

Additional observations from a re-analysis of the deposited data

Results flagged for a closer look

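Among 60 groups of 4 cultures examined for a single value far from the rest, 6 were marked by Dixon's criterion at the 95% level, which marks about 1 in 20 groups by chance. OGD-VEH 9 was marked for *Gria1* (43.2 FPKM), *Gria3* (13.4 FPKM) and *Cacng3* (7.35 FPKM), each time as the highest culture of its group. The *Gria2* flip share was marked in OGD-VEH 10, the lowest of its group at 64.8%. The share of *Gria1* FPKM on Gria1-205 was marked in OGD-VEH 11 (1.6%) and in OGD-TIA 14 (0.117%), in groups otherwise at or close to 0.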

How the results depend on the processing

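With 4 of the 8 genes called in OGD-VEH versus CONTROL-VEH, 7 were called with all 16 cultures in one fit and 0 without a filter on low values. Leaving out 1 culture gave 0 to 6 called genes and, for isoforms in place of 0, 0 to 5, the highest without OGD-VEH 9 in both. In place of 0, 1 gene was called in OGD-TIA versus CONTROL-TIA with isoforms weighted by length (*Gria3*, with 0.819% of all genes called lower), and 2 in OGD-TIA versus OGD-VEH with array quality weights (3.49% of all genes called higher). Over all genes, 1380 were called in OGD-VEH versus CONTROL-VEH, against 10 without the filter, 4160 with isoforms weighted by length, 4594 in one fit, 6344 with array weights and 1 to 4991 without 1 culture. Log2 fold changes turned their sign only in CONTROL-TIA versus CONTROL-VEH, where all were small. *Gria1* went from -0.06 to 0.08 with array weights. Counting protein-coding isoforms only, an alternative chosen after seeing the data, *Gria2* went from 0.01 to -0.04 and *Gria3* from 0.13 to -0.31. For *Gria3*, CONTROL-TIA 8 then had 1.89 FPKM and the other CONTROL-TIA cultures 6.31 to 7 FPKM. Over all isoforms, leaving out 1 culture in this comparison gave -0.27 to 0.14 for *Gria1* and -0.02 to 0.05 for *Gria2*. It gave -0.23 to 0.01 for *Gria4* and -0.18 to 0.18 for *Cacng3*. Apart from the fits with fewer cultures or more genes tested, the cause of these shifts was not tested. In the 2 OGD comparisons no log2 fold change of the 8 genes turned its sign in the 10 other settings or with 1 culture left out. No paired analysis was possible because the labels number the cultures 1 to 16 and share no number between groups. The summed inhibitory neuron markers were lowest in the middle pair of culture numbers of every group (for example 465 and 477 FPKM against 669 and 855 in CONTROL-VEH), and whether cultures at the same place share a preparation is not given in the sources used here and was not tested. The depth limits isoforms below about 1 FPKM, and 4 cultures a group limit all tests.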
